A study of Mus musculus with 2 samples.

Results

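Pf4 (platelet factor 4, CXCL4) and Ppbp (pro-platelet basic protein, the precursor of CXCL7) are the CXC chemokine genes best known from platelets. They were 2 of the 32285 genes counted in a single-cell RNA library of osteal macrophages (Omacs), the macrophages that lie on bone surfaces. The pair was chosen by its UMI counts in these same cells, which had been seen to gather in few barcodes, so the levels of both genes are a description and no test was run on them. The question was which barcodes held the transcripts: barcodes with other genes of megakaryocytes and platelets, barcodes with macrophage genes, or the remaining cells, and in which condition.

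The cells came from femurs and vertebrae of BALB/c mice that were 10 weeks old at surgery and had been ovariectomized (OVX) or sham-operated (sham), with 20 mice pooled per condition and cells taken 4 weeks after the operation. Cells were released by enzyme digestion after the marrow cavity was rinsed, sorted as CD11b+ together with F4/80 or CD68, and carried hashtag 1 (OVX) or hashtag 2 (sham). Both pools were run together in 1 library with a 3′ kit in which a unique molecular identifier (UMI) marks each transcript end, so counts are of molecules and do not grow with transcript length. Each condition was 1 pool without replicates, so intervals cover counting error only and no difference between OVX and sham has a replicate check.

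The library held 2349 barcodes and 17681092 UMIs on genes, with a median of 4387 UMIs per barcode (500 to 141565). By their hashtag counts 1059 barcodes were OVX and 981 sham, while 78 lay above the cutoffs of both hashtags and 231 under both. The labelled cell type was only partly borne out by its markers: 68 of the 2349 barcodes had a UMI of at least 3 of 17 macrophage-defining genes, called the macrophage gene pattern here, and a list of 13 neutrophil genes took a median of 20.03% of the UMIs of a barcode. Clustering without Pf4 and Ppbp gave 6 clusters. Clusters 1 to 4 (2000 barcodes) had 16.0% to 37.2% of their UMIs in the neutrophil list, and cluster 5 (210 barcodes) was stromal-like by Prg4 and Dcn. Cluster 6 (139 barcodes) was left unnamed, since none of the macrophage-defining genes was among its 10 leading genes, which were Pf4, Ppbp, H2-Aa, Arg1, H2-Eb1, Cd74, Il7r, H2-Ab1, Ms4a6d and Ccl22. Of the 68 barcodes with the macrophage gene pattern, 54 were in cluster 6 and 10 in cluster 5.

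Megakaryocytes make both proteins and pack them into the alpha granules of platelets, which release them on activation. Pf4 binds heparin and other negatively charged sugar chains, and cutting of the Ppbp product yields a peptide that draws and activates neutrophils through the receptor encoded by Cxcr2. Transcripts of Pf4 are also known from some macrophages and monocytes, so a barcode with Pf4 can be a megakaryocyte, a cell with platelets bound to it, or a myeloid cell that transcribes the gene.

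The genes lie side by side on mouse chromosome 5 (GRCm38, forward strand). Ppbp (ENSMUSG00000029372) spans chr5:90768518-90770063 with 3 exons and Pf4 (ENSMUSG00000029373) spans chr5:90772435-90773383, with 2371 bases between the end of Ppbp and the start of Pf4. Upstream of Ppbp lies Cxcl5 and downstream of Pf4 lie Cxcl3, Cxcl15, Cxcl1 and Cxcl2. No annotated gene overlaps either of the pair. The 250 bases before each start are shown because the neighbouring genes were compared barcode by barcode below. The sequences are from RefSeq (GRCm38.p6), given on the gene strand, with capitals for a match to any of 3 motifs searched on both strands: AGATAA and TGATAA, letters bound by GATA factors of megakaryocytes, and GAGGAA, letters bound by ETS factors such as PU.1 of myeloid cells.
Pf4, chr5:90772185-90772434: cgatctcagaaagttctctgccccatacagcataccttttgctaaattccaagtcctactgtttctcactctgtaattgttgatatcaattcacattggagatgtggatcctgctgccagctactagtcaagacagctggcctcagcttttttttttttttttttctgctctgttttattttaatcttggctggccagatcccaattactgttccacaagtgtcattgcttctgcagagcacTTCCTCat
Ppbp, chr5:90768268-90768517: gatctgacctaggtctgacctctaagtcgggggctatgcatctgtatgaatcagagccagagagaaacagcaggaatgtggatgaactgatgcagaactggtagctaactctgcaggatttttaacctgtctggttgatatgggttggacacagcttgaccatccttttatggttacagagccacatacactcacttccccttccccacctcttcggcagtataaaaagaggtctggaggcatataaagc
Before the start of Pf4 the motif search matched GAGGAA on the opposite strand (capitals), beginning 8 bases before the start, and neither GATA motif. AGATAA was matched once just after the start of Pf4, outside the stretch shown. Before the start of Ppbp none of the 3 motifs was matched. Over 32851 mouse promoters of the same length, 23.3% held GAGGAA, 9.99% AGATAA and 7.94% TGATAA, so such matches are common and describe these letters alone.

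Pf4 was counted 3293 times in 108 barcodes and Ppbp 884 times in 34 barcodes. A UMI of Pf4 was thus found in 4.60% of the barcodes (exact 95% interval, 3.79 to 5.52%) and of Ppbp in 1.45% (1.00 to 2.02%). Scaled to 1000000 UMIs (CPM), the library level was 186 CPM of Pf4 (180 to 193) and 49.997 CPM of Ppbp (46.8 to 53.4). Of the 130 barcodes with a UMI of either gene, 98 had 1 or 2 UMIs of the pair, 2 had 3 or 4, and 30 had at least 5. These 30 barcodes, called high below, held 3199 of the Pf4 UMIs (97.1%) and 861 of the Ppbp UMIs (97.4%). Just inside the threshold were an OVX barcode with 5 Pf4 UMIs and a sham barcode with 7. Just outside were barcodes with 4 and 3 Pf4 UMIs, and neither of these had Ppbp.

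**Figure D1:**
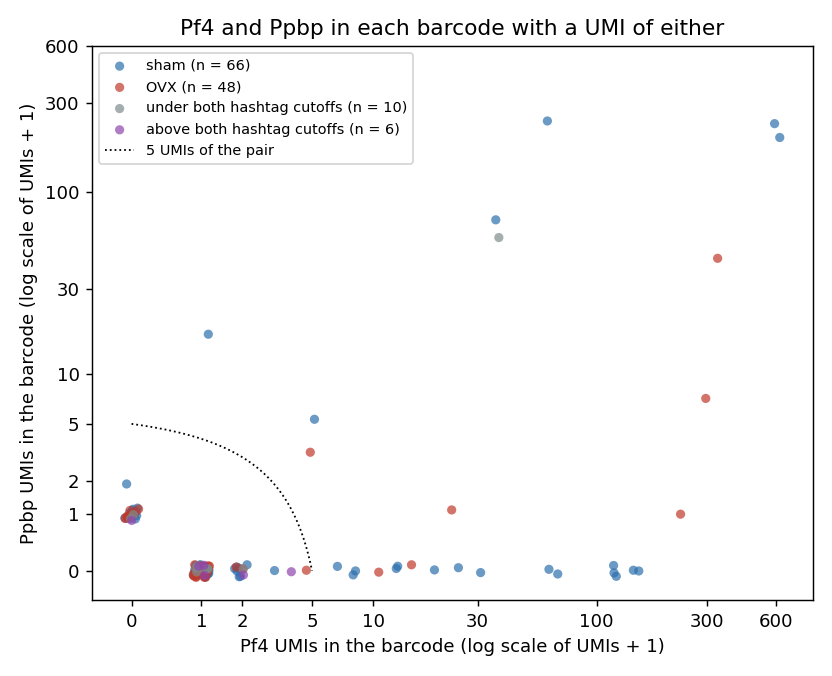
Ppbp UMIs against Pf4 UMIs in each of the 130 barcodes with a UMI of either gene, both axes on a log scale of UMIs + 1 with points spread slightly so that they can be told apart; colour gives the hashtag call. The 100 barcodes inside the dotted line sit at 0 to 4 UMIs, 18 of the 30 high barcodes lie along the Pf4 axis without Ppbp, and the 3 barcodes with the most Ppbp are sham.

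Few barcodes set the sums. The 3 barcodes with the most Pf4 held 46.6% of its UMIs and the top 10 held 83.4%. For Ppbp the top 3 held 657 of 884 UMIs (74.3%) and the top 5 held 88.6%. All 30 high barcodes fell in cluster 6, although neither gene had been used in the clustering. They were deeper than the library as a whole, with a median of 11168 UMIs (1199 to 46233). With every barcode thinned to 1000 UMIs, which leaves out 171 barcodes, none of them high, a UMI of Pf4 was found in 41 of 2178 barcodes (1.88%) and of Ppbp in 14 (0.643%), and 25 of the 30 high barcodes still had Pf4.

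The high barcodes carried macrophage genes and almost no other platelet genes. Of the 30, 28 had the macrophage gene pattern and the other 2 had 2 of the 17 genes. This count rested on depth: with each barcode thinned to 1000 UMIs, 4 of the 30 had at least 3 of the genes and 14 had at least 2, out of 29 barcodes with at least 2 in the library. Their macrophage-list UMIs ranged from 2 to 83 with a median of 26, and 892 of the library's 2281 macrophage-list UMIs were in these 30 barcodes. Msr1, a scavenger receptor, had 433 UMIs in 28 of them, and Lgmn, a lysosomal protease, 115 UMIs in 20. The growth factor receptor Csf1r had 39 UMIs in 18 barcodes, Adgre1, which encodes the sort antigen F4/80, 24 in 14, Fcgr1, an Fc receptor, 27 in 11, and Trem2, a lipid receptor, 22 in 11. Mrc1, the mannose receptor, had 8 UMIs in 3 of these barcodes, and Mertk, a receptor for dying cells, 6 UMIs in 6. The other 8 genes of the list were at 0 UMIs in the high barcodes. Of these, the complement gene C1qc and the scavenger receptors Cd163 and Marco were at 0 in the whole library, and C1qa and C1qb had 1 UMI each in all.

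No barcode showed a platelet or megakaryocyte pattern. A UMI of at least 3 of 18 platelet and megakaryocyte genes (Pf4 and Ppbp left out) was found in 0 of the 30 high barcodes, which allows a share of up to 10%, and in 0 of all 2349, which allows up to 0.128%. The most such genes in a barcode was 2, in 17 barcodes, and 1 of these had a UMI of the pair. Among the high barcodes 23 had none of the 18 genes and 7 had 1 gene. The 11 platelet-list UMIs in them were 4 of Vwf (von Willebrand factor), 4 of Selp (P-selectin), 2 of Clec1b (the platelet receptor CLEC-2) and 1 of Gp1bb (a subunit of the von Willebrand factor receptor). The genes for other subunits of that receptor, Gp1ba and Gp9, the platelet tubulin gene Tubb1 and the megakaryocyte transcription factor gene Gata1 were at 0 in every barcode. Itga2b and Itgb3, which encode the platelet fibrinogen receptor, had 20 and 46 UMIs in the library and 0 in the high barcodes, where a count of 0 allows up to 7.87 CPM. Selp held 450 of the library's 653 platelet-list UMIs, and stood at 39.9 CPM in clusters 1 to 4 and 10.5 CPM in the high barcodes. The other genes found in the high barcodes stood higher there than in clusters 1 to 4, on few UMIs each. Vwf was at 10.5 and 0.186 CPM, Clec1b at 5.25 and 0.651 CPM, and Gp1bb at 2.62 and 0.558 CPM. The rest of the list had 0 UMIs in the high barcodes.

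**Figure D2:**
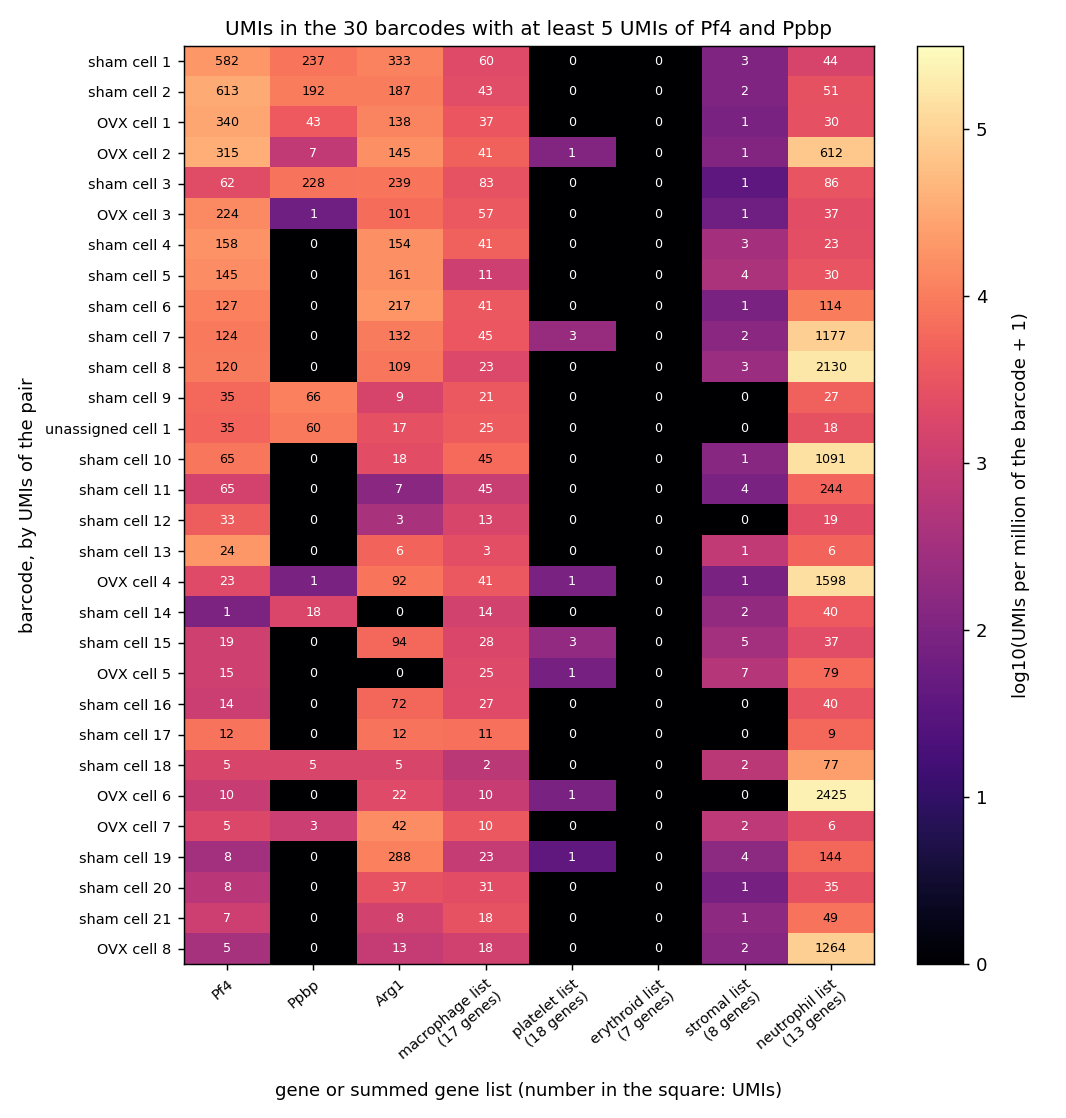
UMIs of Pf4, Ppbp, Arg1 and 5 summed gene lists (columns) in each of the 30 high barcodes (rows, ordered by UMIs of the pair); colour is log10 of UMIs per 1000000 of the barcode + 1, and the number is the UMI count. The platelet column holds 0 to 3 UMIs and the erythroid column 0 in every row, the macrophage column 2 to 83, and the neutrophil column is far higher in 7 rows than in the other 23.

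Markers of other cells were also counted in the high barcodes. Erythroid, B, dendritic, basophil or mast and eosinophil lists had 0 UMIs in them, the T or NK list 1, the endothelial list 6, the osteoclast list 11, the stromal list 55 and the monocyte list 82. The neutrophil list took 7.19 to 22.6% of the UMIs in 7 high barcodes, 4 OVX and 3 sham, and 0.155 to 2.51% in the other 23, against a median of 23.9% per barcode in clusters 1 to 4. The 7 had 10 to 45 macrophage-list UMIs each. Without these 7 barcodes the remaining 23 still held 2537 Pf4 and 853 Ppbp UMIs. Whether these 7 hold more than 1 cell each was not tested.

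Outside the high barcodes both genes were near 0. In clusters 1 to 4 Pf4 stood at 4.09 CPM (2.97 to 5.496) and Ppbp at 1.02 CPM (0.511 to 1.83), and in the stromal-like cluster at 2.56 CPM (1.40 to 4.29) and 1.46 CPM (0.631 to 2.88). In the high barcodes the levels were 8395 and 2259 CPM, which the choice of these barcodes fixes in part. A UMI of Pf4 was found in 2.05% of clusters 1 to 4 (median 3916.5 UMIs) and in 5.71% of the stromal-like cluster (median 19996.5 UMIs), and after thinning in 0.483% and in 0 of 198 barcodes. Free RNA of lysed cells can give such stray UMIs in droplet data, and its level was not measured here, so the 100 barcodes with 1 to 4 UMIs of the pair were not read as cells that express it. Of these, 52 were in clusters 1 to 4, 20 in cluster 5 and 28 in cluster 6, where the 109 barcodes that were not high held 33.4 CPM of Pf4 (23.4 to 46.2) and 3.71 CPM of Ppbp (1.01 to 9.49).

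The macrophage gene pattern went with high levels of the pair but did not always bring them. Pf4 stood at 2110 CPM in barcodes with the pattern and 6.31 CPM in those without it, and Ppbp at 569 and 1.48 CPM. Of the 68 barcodes with the pattern 40 were not high, and 23 of these had no UMI of either gene. The 40 include the 10 of the stromal-like cluster 5, very deep barcodes (median 62395.5 UMIs), of which 1 had Pf4 and 0 had Ppbp. In counts thinned to 1000 UMIs, 0 barcodes of cluster 5 had 2 or more of the macrophage genes. The closest comparison is with the 26 barcodes of cluster 6 that had the pattern and were not high, at a like depth (median 11424 UMIs). The groups were not alike in other markers. In the 26 and the high barcodes the monocyte list stood at 427 and 215 CPM and a cycling list of 2 genes at 186 and 2.62 CPM. The macrophage list stood at 1427 and 2341 CPM and the neutrophil list at 17387 and 30289 CPM. The 26 barcodes held 44.8 CPM of Pf4 (26.99 to 70.0) and 9.44 CPM of Ppbp (2.57 to 24.2), each above the level of clusters 1 to 4. Pf4 UMIs were 1 to 3 in 13 of these barcodes and 7 to 613 in all but 4 of the high ones, whose Pf4 counts formed a long tail. The groups were split at 5 UMIs of the pair, so the low counts of the 26 follow from that choice.

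Within the high barcodes the genes did not keep a fixed ratio. Summed over the library, Ppbp was 21.2% of the UMIs of the pair, a ratio of 0.268 to Pf4. Of the 30 high barcodes 12 had both genes, 18 had Pf4 only and 0 had Ppbp only. The sham barcode with the most UMIs of the pair had 582 Pf4 and 237 Ppbp UMIs, and the next 613 and 192. In another sham barcode the order was turned, with 62 Pf4 and 228 Ppbp UMIs. Sham barcodes with 158, 145, 127, 124 and 120 Pf4 UMIs had 0 of Ppbp, and an OVX barcode had 224 of Pf4 and 1 of Ppbp. In 4 barcodes Ppbp exceeded Pf4: besides 62 and 228, these had 35 and 66, 35 and 60, and 1 and 18 UMIs of Pf4 and Ppbp. The exact 95% interval of the Ppbp share lay above the pooled share of 21.2% in 5 barcodes, below it in 14, of which 10 were without Ppbp, and held it in 11. Among the 100 barcodes with 1 to 4 UMIs of the pair, Ppbp was 19.7% of the summed UMIs (12.9 to 28.0%), an interval that holds the pooled share, and 20% (10.4 to 33.0%) in clusters 1 to 4.

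The high barcodes with and without Ppbp overlapped in the other measures examined, a split made after the values were seen. Pf4 UMIs were 1 to 613 (median 48.5) in the 12 with Ppbp and 5 to 158 (median 21.5) in the 18 without. Median depth was 10884.5 and 11695.5 UMIs. Arg1, which encodes arginase and is a marker of alternative activation, had a median of 8357 CPM with Ppbp and 5333 CPM without, and the groups overlapped from 0 to 17041 CPM. Msr1 had medians of 1275 and 695 CPM, with ranges from 0 in both groups. Of the 12, 5 were OVX and 6 sham. Of the 18, 3 were OVX and 15 sham.

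Among the 10 genes with counts most like Pf4 over the 2349 barcodes were Arg1 (Pearson r = 0.66), Slc7a8 (0.58), Ms4a6d (0.56), Cd36 (0.55), Msr1 (0.52), C3ar1 (0.52), Irf8 (0.51) and Itga1 (0.50), of 11548 genes searched. For Ppbp they included Pf4 (0.50), Itga1 (0.36), Arg1 (0.35), C3ar1 (0.35), Lgals1 (0.34), S100a4 (0.33), Ms4a6d (0.32), Msr1 (0.32) and Irf8 (0.30). None of either 10 was in the platelet list and 2 of each were in the macrophage list, among them Msr1. Only genes with a UMI in at least 20 barcodes were searched, and in the platelet list Itgb3, Selp and Alox12 alone reached this. The other platelet genes could not appear, so their absence is not a result. The 10 genes most like Pf4 and the 10 most like Ppbp shared 7. These barcodes share 1 library and differ in depth, most of them had 0 of both genes, and the values are a description over cells. Arg1 had 2661 of its 4138 UMIs in 28 of the high barcodes. Cd36, a scavenger receptor for lipids, had 191 of 247 UMIs in 21 of them, and Slc7a8, an amino acid transporter, 83 of 140 in 23. Within the 68 barcodes with the macrophage gene pattern, the gene most like Pf4 was Ctsl, a lysosomal protease (0.62), followed by Arg1 (0.61).

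Arg1 and Cd36 belong to a list of 14 alternative activation and coagulation genes of macrophages, in which 12 had a UMI in the high barcodes. The others, Retnla and Mgl2, had 534 and 1 UMIs in the library and 0 in the high barcodes. Of the 12, Chil3 had 8 of its 1185 UMIs there and Clec10a had all of its 6. Against the other 26 macrophage-pattern barcodes of cluster 6, 3.48% of 1783 genes at 100 CPM or more were at least 2-fold higher in the high barcodes and 7.07% at least 2-fold lower. In the list 4 of 9 genes counted were at least 2-fold higher and 0 lower. Of the 4, 2 reached 100 CPM only in the high barcodes, Cd36 and Ms4a8a (165 and 56.6 CPM), so the limit itself favoured a higher level there. With the limit set on both groups together the list again had 4 of 9 higher, and 3.06% of 1536 genes were. Arg1 stood at 6983 CPM in the high barcodes and 2439 CPM in the others, and had a UMI in 28 of 30 and 18 of 26 barcodes. Cd36 stood at 501 and 63.7 CPM. Hmox1, the heme-degrading oxygenase, with 4658 and 2612 CPM, Msr1 with 1136 and 847 CPM, and Fn1, fibronectin, with 643 and 689 CPM did not differ by 2-fold. In the macrophage list 2 of 4 genes counted were at least 2-fold higher, among them Lgmn (302 and 77.9 CPM), which also reached 100 CPM only in the high barcodes. Both groups are sums over few barcodes of 1 library, and Arg1, Cd36 and Msr1 were also named for their likeness to Pf4 in these cells.

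The other CXC chemokine genes of the locus did not share the confinement of the pair to the high barcodes. Cxcl3, whose product attracts neutrophils and which is the next gene downstream of Pf4, stood at 14192 CPM in the high barcodes (13816 to 14575) and at 4002 CPM in clusters 1 to 4, where 74.1% of its UMIs lay. Cxcl2 stood at 3884 CPM in the high barcodes, 3067 CPM in clusters 1 to 4 and 5935 CPM in the stromal-like cluster. Cxcl1 had 96.9% of its UMIs in the stromal-like cluster, at 5570 CPM against 485 CPM in the high barcodes. Cxcl5, the gene upstream of Ppbp, had 80.9% of its UMIs in the stromal-like cluster and stood at 176 CPM (136 to 223) in the high barcodes, at 213 CPM (186 to 243) in the rest of cluster 6 and at 2.33 CPM in clusters 1 to 4. In the other macrophage-pattern barcodes of cluster 6 Cxcl5 was higher than in the high barcodes, at 415 CPM (356 to 481). There Cxcl3 stood at 8356 CPM, Cxcl2 at 2944 CPM and Cxcl1 at 285 CPM, each below the high barcodes. Cxcl15 had 28 UMIs in all, of which 3 were in 1 high barcode. The share of UMIs in the 30 high barcodes was 9.32% for Cxcl3, 3.97% for Cxcl5, 2.16% for Cxcl2 and 0.588% for Cxcl1, against 97.1% and 97.4% for Pf4 and Ppbp, whose counts chose these barcodes.

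**Figure D3:**
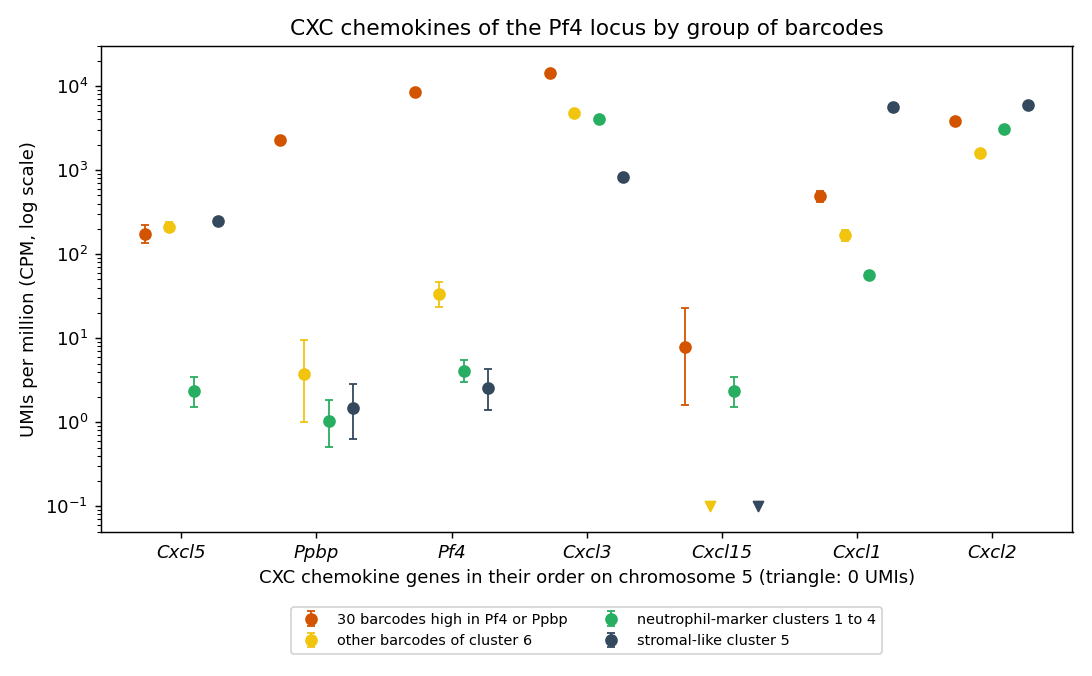
CPM (log scale) of the 7 CXC chemokine genes, in their order along chromosome 5, in the 30 high barcodes, the other 109 barcodes of cluster 6, clusters 1 to 4 and the stromal-like cluster 5; bars are exact 95% Poisson intervals and triangles mark 0 UMIs. In the high barcodes that they define, Pf4 and Ppbp are 2050-fold and 2208-fold above clusters 1 to 4, while Cxcl3 is 3.55-fold above clusters 1 to 4 and 17.2-fold above cluster 5, and Cxcl1 and Cxcl2 are highest in cluster 5.

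Of 13 genes for receptors, binding partners and proteases of these chemokines, 9 had a UMI in the high barcodes. Srgn, which encodes the proteoglycan that holds chemokines in granules, had 1045 UMIs in 29 of them (2742 CPM) and 4786 CPM in clusters 1 to 4. Itgam, the CD11b chain used in the sort and a binding partner of Pf4, stood at 1378 and 1829 CPM, and the chemokine receptor gene Ccr1 at 827 and 881 CPM. Sdc4, a cell surface proteoglycan, stood at 462 CPM in the high barcodes and 8.19 CPM in clusters 1 to 4. It was at 229 CPM in the other macrophage-pattern barcodes of cluster 6 and highest, at 896 CPM, in the stromal-like cluster. Cxcr2, the receptor gene for the Ppbp peptide and also a gene of the neutrophil list, stood at 249 CPM over the 30 high barcodes, with a UMI in 12 of them, and at 1580 CPM in clusters 1 to 4, and Cxcr3, a receptor gene for Pf4, was at 0 in the library.

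Other cargo of platelet alpha granules was counted as well. In a list of 14 such genes, 10 had a UMI in the high barcodes. Thbs1 (thrombospondin 1) was the most counted, with 4745 CPM over the 30 high barcodes and a UMI in 28 of them, 2600 CPM in the other macrophage-pattern barcodes of cluster 6 and 1347 CPM in clusters 1 to 4. Tgfb1 stood at 239, 158 and 77.8 CPM in these groups, and Pdgfa, a growth factor subunit, at 199, 172 and 2.70 CPM. Of the 5 genes of the list counted against the other macrophage-pattern barcodes, 0 were at least 2-fold higher in the high barcodes and 1 was lower. Over all 1783 genes counted 3.48% were higher and 7.07% lower, so 0 higher of 5 genes is near that share. The lower gene reached 100 CPM only in the other barcodes. With the limit set on both groups together 0 of 4 were higher and 0 lower, beside 3.06% and 4.82% of 1536 genes. Mmrn1 (multimerin 1), a platelet and endothelial protein, was at 0 in the library.

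OVX barcodes held fewer UMIs of both genes than sham barcodes. Pf4 was counted 971 times in OVX, or 124.5 CPM (117 to 133), and 2270 times in sham, or 351 CPM (337 to 366), a ratio of 0.354 (0.328 to 0.382). Ppbp was counted 63 times in OVX, or 8.08 CPM (6.21 to 10.3), and 758 times in sham, or 117 CPM (109 to 126), a ratio of 0.0689 (0.0524 to 0.0891). Of the 7170 genes that reached 10 CPM in OVX or sham, 4.07% were at least 2-fold lower in OVX and 1.74% at least 2-fold higher, with a median log2 ratio of -0.23. On that log2 scale Pf4 stood at -1.496 and Ppbp at -3.86, and 51 of the 7170 genes had a lower ratio than Pf4 and 4 a lower ratio than Ppbp. Ppbp reached 10 CPM in sham only, so the limit itself favoured a lower ratio. Genes past the limit in 1 condition only were 880 of the 7170 and gave 161 of the 292 lower calls. With the limit set on both conditions together, 3% of 6724 genes were lower and 1.58% higher, and no ranks were taken there. The hashtag rule moved these values: where a barcode went to whichever hashtag made up 80% or more of its hashtag UMIs, the ratios were 0.504 for Pf4 and 0.0929 for Ppbp.

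The ratios rested on few barcodes. There were 8 high barcodes among the 1059 OVX barcodes (0.755%, 0.327 to 1.48%) and 21 among the 981 sham barcodes (2.14%, 1.33 to 3.25%), and 1 was under both hashtag cutoffs. Pf4 UMIs in the high barcodes were 5 at the lowest, 19 at the median and 340 at the highest in OVX, and 1, 35 and 613 in sham. The groups overlapped over nearly the whole OVX range, and 2 sham barcodes lay above it. Scaled to depth and summed, high OVX barcodes held more Pf4, 10775 CPM (10096.5 to 11488), than high sham barcodes, 7741 CPM (7422 to 8069). The median per barcode went the other way, with 1925 CPM for the OVX group and 5975 CPM for the sham group. Summed Ppbp was lower for high OVX barcodes, 632 CPM (476 to 823), than for high sham barcodes, 2593 CPM (2410 to 2786). Its median per barcode also went the other way, with 76.9 CPM for the OVX group and 0 CPM for the sham group. Ppbp UMIs were 0 to 43 in OVX with a UMI in 5 of 8, and 0 to 237 in sham with a UMI in 6 of 21, where 4 barcodes lay above the highest OVX value. The top 3 barcodes held 90.5% of the Pf4 UMIs of OVX and 59.6% of those of sham, and for Ppbp 84.1% and 86.7%. Without the top 3 barcodes of each condition the ratio was 0.0828 for Pf4 and 0.0813 for Ppbp, so the size of the Pf4 ratio turned on 3 barcodes a side.

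The kinds of cells differed between the pools as well. Cluster 6 held 46 OVX and 72 sham barcodes, of which 17.4% (7.82 to 31.4%) and 29.2% (19.0 to 41.1%) were high, intervals that overlap. Within cluster 6 the OVX and sham levels of Pf4 were 2044 and 2440 CPM, a ratio of 0.838 (0.776 to 0.904), and those of Ppbp 124 and 810 CPM, a ratio of 0.153 (0.115 to 0.200). A UMI of Ppbp was found in 15.2% of its OVX barcodes (6.34 to 28.9%) and 9.72% of its sham barcodes (4.00 to 19.0%), intervals that overlap. Over all barcodes these shares were 1.23% and 1.73%. Among barcodes with the macrophage gene pattern, of which 25 were OVX and 37 sham, the ratios were 0.634 and 0.115, and 8 of the 25 and 19 of the 37 were high. In clusters 1 to 5, where both genes had few UMIs, the OVX level of Pf4 was 4.22 CPM (2.87 to 5.996) and its sham level 3.07 CPM (1.79 to 4.91). For Ppbp these were 0.818 CPM (0.300 to 1.78) and 1.81 CPM (0.866 to 3.32), and the intervals overlapped for both genes. The cluster 6 ratios rested on the same few barcodes: without the top 3 of each condition they were 0.138 (0.105 to 0.180) for Pf4, from 61 and 900 UMIs, and 0.0852 (0.0227 to 0.226) for Ppbp, from 4 and 91 UMIs. Fewer such cells in the mice and fewer recovered by the digestion and sort cannot be told apart.

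**Figure D4:**
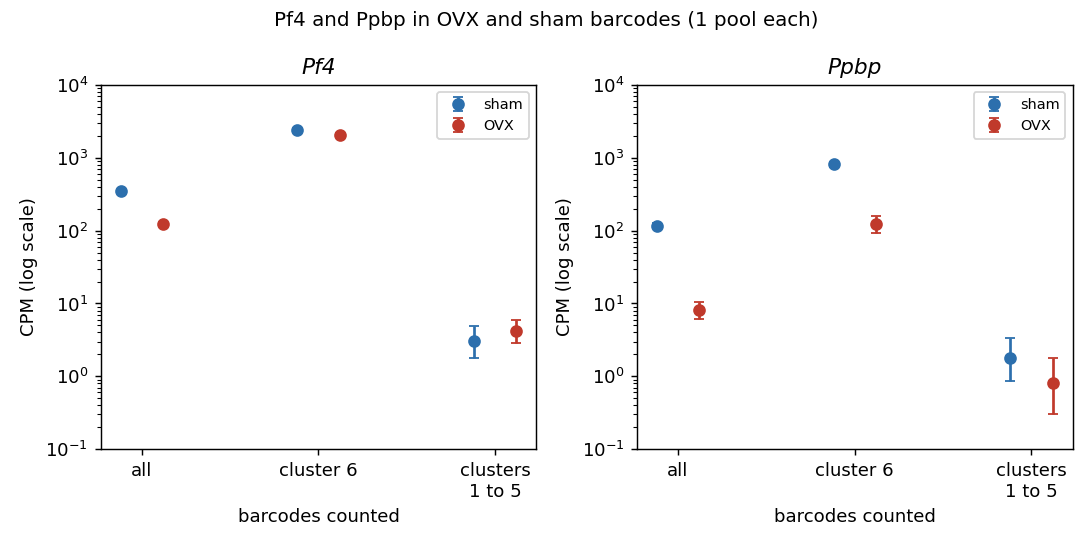
Pf4 (left) and Ppbp (right) in OVX and sham barcodes, as CPM on a log scale, over all assigned barcodes, cluster 6 alone and clusters 1 to 5; bars are exact 95% Poisson intervals, which cover counting error only. In cluster 6 the OVX and sham points of Pf4 lie at 2044 and 2440 CPM and those of Ppbp at 124 and 810 CPM, and in clusters 1 to 5 the intervals of the conditions overlap for both genes.

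Of the high barcodes 4 of 8 OVX and 3 of 21 sham had over 5% of their UMIs in the neutrophil list. Without these 7 barcodes the ratio of OVX to sham was 0.261 for Pf4 and 0.0602 for Ppbp, against 0.354 and 0.0689 with them. Why the pools differed in such barcodes was not tested. The list counts that follow stand beside 4.07% of 7170 genes at least 2-fold lower in OVX and 1.74% higher. With the limit set on both conditions together these list counts were the same, beside 3% of 6724 genes lower and 1.58% higher. Over all barcodes the macrophage list had 2 of 4 genes at least 2-fold lower in OVX, among them Msr1 (40.1 and 97.5 CPM), and 0 higher. The alternative activation list had 3 of 10 genes lower, among them Arg1 (122 and 470 CPM) and Cd36 (8.33 and 26.9 CPM, over the limit in sham only). In the same list 1 gene was higher, Retnla (62.2 and 7.27 CPM, over the limit in OVX only). Retnla had 0 UMIs in the high barcodes and was a leading gene of neutrophil-marker cluster 2, at 125 CPM against 5.49 CPM outside it. Among the CXC genes of the locus 2 of 4 were lower, Cxcl1 (678 and 1859 CPM) and Cxcl5 (8.08 and 90.5 CPM, over the limit in sham only), and 0 higher, while Cxcl3 stood at 4005 and 3308 CPM. Most UMIs of Cxcl1 and Cxcl5 lay in cluster 5, where 112 of 210 barcodes were under both hashtag cutoffs and so in neither level. Of that cluster 38 barcodes were OVX and 54 sham. Of the receptor and binding partner list 1 of 9 genes was higher in OVX, over the limit in OVX only, and 0 lower. Of the alpha-granule list 1 of 9 was lower, Thbs1 (581 and 1897 CPM), and 0 higher. Thbs1 was also a leading gene of neutrophil-marker cluster 1, at 2547 CPM against 754 CPM outside it. Cluster 1 held 181 OVX and 426 sham barcodes, and cluster 2 held 423 and 95. The part of these splits in the Thbs1 and Retnla levels was not tested. In the platelet list Selp alone reached 10 CPM, with an OVX level of 38.7 and a sham level of 19.5 CPM.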

How the data were processed

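The authors aligned the reads of a multiplexed 3′ single-cell library (10x Genomics) to mm10 with Cell Ranger (6.0.0 in the file header, 6.0.1 in the labels) and deposited raw UMI counts (whole numbers) of 32285 genes and of both hashtags for each of the 2349 barcodes called as cells. The members and gene lists were chosen with earlier results of these data known. Hashtag counts were read from that matrix, and the hashtag library listed beside it was not used here.

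Condition was taken from hashtags alone. HTODemux of Seurat 5.3.0 was run in R 4.3.3 at a quantile of 0.99. Barcodes above both cutoffs or under both were left out of OVX and sham. This removes doublets between conditions only. No doublet caller was run, so doublets within a condition remain. No other barcode was removed. Clusters came from Louvain clustering (scanpy 1.11.5, igraph 0.11.9, Python 3.11.15) on 2000 variable genes with Pf4 and Ppbp left out, 30 components and 15 neighbors, at a resolution of 0.4 that gave 6 clusters.

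Levels are summed UMIs per 1000000 (CPM) with exact Poisson 95% intervals, and shares have exact Clopper-Pearson 95% intervals. With 1 pool per condition no p-value was computed. A gene was counted in a comparison at 10 CPM or more in either condition (100 CPM for high barcodes) and called at 2-fold. A count of 0 allows up to 3 counts. Shares were also computed after thinning each barcode to 1000 UMIs. Likeness was Pearson correlation of log counts scaled to 10000 + 1, over genes with a UMI in at least 20 barcodes. From each list the 4 genes with the most UMIs in high barcodes are named, any platelet or macrophage gene, and the 10 genes most like each of the pair. Some of these genes are not reported here. Cxcl15, Cxcr2, Cxcr3, Mmrn1, Ctsl, Ms4a8a, Retnla, Mgl2, Chil3 and Clec10a were named after their values were seen. The calculations were tested on simulated data. There the OVX and sham counts were plain Poisson draws, without the gathering of UMIs in few barcodes seen here. The simulation therefore does not show that the ratio intervals hold under such gathering. Gene positions are from GENCODE for GRCm38 and promoters from RefSeq.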

Additional observations from a re-analysis of the deposited data

Results flagged for a closer look

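Barcodes outside both conditions also held UMIs of the pair. In the 78 barcodes above both hashtag cutoffs Pf4 had 9 UMIs (19.3 CPM, 8.81 to 36.6), of which 4 were in 1 barcode. In the 231 barcodes under both cutoffs Pf4 had 43 UMIs and Ppbp 62 UMIs. Of these, 35 Pf4 and 60 Ppbp UMIs were in 1 high barcode with 3 macrophage-list genes, 0 platelet-list UMIs, 23 OVX hashtag UMIs and 725 sham hashtag UMIs, so 96.9% of its hashtag UMIs were sham. Its part in the sham level was not counted in the ratios above other than under the hashtag share rule.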

How the results depend on the processing

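Every alternative run compared summed or mean levels. In these OVX stood below sham for Ppbp under each, and for Pf4 too except in clusters 1 to 5. In those clusters OVX stood above for Pf4, at 1.38 (0.739 to 2.65, from 31 and 17 UMIs). The high barcodes alone were not among the alternatives. In them summed Pf4 was higher for OVX (10775 CPM) than for sham (7741 CPM), and summed Ppbp was lower. The median per high barcode went the other way for both genes, and for Ppbp it was 76.9 CPM in OVX and 0 CPM in sham. The size of the ratios moved. The Pf4 ratio of OVX to sham, 0.354 as reported, was 0.504 under the hashtag share rule, 0.315 without the top barcode of each condition, 0.634 in barcodes with the macrophage gene pattern, 0.455 in those without it and 0.497 with equal weight per cell. The Ppbp ratio, 0.0689, was 0.0929, 0.0317, 0.115, 0.313 and 0.154 under the same settings. Alternatives chosen after seeing the data gave 0.838 for Pf4 and 0.153 for Ppbp in cluster 6 alone, 0.138 for Pf4 in cluster 6 without its top 3 barcodes of each condition, 0.453 for Ppbp in clusters 1 to 5, 0.0828 for Pf4 without the top 3 barcodes of each condition, and 0.261 for Pf4 without the 7 high barcodes rich in neutrophil genes. The share of Pf4 UMIs in barcodes with the macrophage gene pattern, 96.9%, was 77.7% with at least 5 genes, 98.4% with at least 2, 59.0% with at least 2 genes in counts thinned to 1000 UMIs, 4.71% with at least 3 in thinned counts, and 98.2% with cluster 6 in place of the pattern, and that of Ppbp, 97.3%, was 80.5% with at least 5 genes and, in thinned counts, 60.6% with at least 2 and 25.8% with at least 3. The 28 high barcodes with the pattern became 14 with at least 5 genes and, in thinned counts, 14 with at least 2 and 4 with at least 3. The share of barcodes with a UMI fell from 4.60% to 1.88% and 1.15% for Pf4, and from 1.45% to 0.643% and 0.426% for Ppbp, at 1000 and 500 UMIs. The ratio of Ppbp to Pf4, 0.268, was 0.217 without the top barcode of each gene and 0.210 with equal weight per cell. Of the 20 places of genes most like the pair, 9 were kept by Spearman correlation and 6 within the macrophage gene pattern. The other 26 of 62 alternatives moved no value beyond its interval or 1.5-fold. The 0 high barcodes with the platelet pattern could not change in these runs, so they are no check of it. No barcode of the library had more than 2 of the platelet-list genes and no high barcode more than 1. No paired analysis was possible because each condition was 1 pool. The depth limits platelet genes of low level: 1 UMI in a barcode of median depth is a coarse step, and absence of a transcript was not shown.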
